A study of Arabidopsis thaliana with 9 samples.

Results

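Of the 26984 genes measured by RNA sequencing in Arabidopsis thaliana seedlings, 25 were silent in all 3 wild-type libraries and on in all 3 libraries of the light-signalling mutant cop1-6. Silent means below 0.5 FPKM (a fragment count divided by the transcript's length and the library's size) and on means at least 1 FPKM. Both limits were applied to every library separately. The members were thus chosen by their measured FPKM in cop1-6 and wild type, and every comparison of the members that draws on those groups is a description. No p-value of a member is printed for such a comparison, and counts of members called by a test are descriptions too.

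The study compared 3 genotypes, cop1-6, cor27cor28 and wild type (Col-0, the common laboratory strain), with 3 libraries each. All came from total RNA of seedlings at 7 days of age, raised in short days and collected at ZT20, which lies in the night. cop1-6 is a single allele of COP1, and cor27cor28 is a double mutant whose alleles the labels do not give. No transgene is named in any group, and neither is it said whether the 3 libraries of a group came from separate batches of plants, so a p-value here speaks only of the scatter among these libraries, which may be technical.

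COP1 is a ubiquitin ligase that, together with SPA proteins, targets transcription factors of the light response such as HY5 for degradation in the dark. Plants with weak cop1 alleles survive but develop in darkness or short days partly as if they were in light. COR27 and COR28 are small nuclear proteins that repress transcription of clock and light-response genes and are themselves targets of COP1.

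COP1 was not analysed here, and the cop1-6 label was not compared with the level of its gene. For the cor27cor28 label 2 loci were followed, COR27 and AT4G33980, which the annotation leaves unnamed, and neither was lower. COR27 had 48, 50.1 and 47.9 FPKM in cor27cor28-labelled libraries, against a mean of 15.3 ± 2.55 FPKM in wild type (SD, n = 3, log2 difference 1.61, limma adjusted p = 0.00165). AT4G33980 had 2.49, 1.48 and 2.71 FPKM in cor27cor28-labelled libraries, against 2.73, 1.92 and 3.08 FPKM in wild type (log2 difference −0.16, adjusted p = 0.573). An allele need not lower its transcript, and the alleles are not given, so these levels neither bear out nor contradict that label. The green-tissue genes RBCS1A and LHCB2.1 were at or above 339 FPKM in every library. FPKM sums were 515929 to 532655 in cop1-6, 548055 to 562621 in the libraries labelled cor27cor28 and 584878 to 612462 in wild type. The 3 cop1-6 libraries differed more than those of the other groups: in replicate 3, 406 genes reached 1 FPKM and were at least 2 times above replicates 1 and 2, whereas each of the other 8 libraries had 48 to 126 genes that stood out from its group in this way. Of 10 root markers tested 9 were lower in cop1-6 and SCR was higher (log2 difference 0.58), where 38.6% of all tested genes were lower and 10.9% higher. The 17 measured summed to 884 to 951 FPKM in cop1-6, against 1287 to 1514 FPKM in wild type, of which PYK10 alone made up 835 to 909 FPKM in cop1-6, against 1201 to 1435 FPKM in wild type. Whether the seedlings held fewer root cells or less of these RNAs per cell cannot be told apart in bulk tissue, and their part in the values below was not tested.

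The 25 genes were a small share of those that wild type kept off. Wild type was silent for 8611 genes, of which 0.29% were on in cop1-6. The same rule run the other way gave 60 genes on in wild type and silent in cop1-6, which was 0.674% of the 8896 genes silent in cop1-6. Between the libraries labelled cor27cor28 and wild type, 14 genes were on in the libraries labelled cor27cor28 and silent in wild type, and 1 gene was on in wild type and silent in the libraries labelled cor27cor28. FPKM is a share of the library, and the median gene tested was 0.21 log2 units below wild type in cop1-6. After scaling the libraries by the median of their gene ratios, 45 genes met the rule, and after scaling them to equal totals 41 did, and all 25 were among them both times. The counts of 25 and 60 are for the values as deposited, and the order of such counts depends on scaling. Between cop1-6 and the libraries labelled cor27cor28 it was reversed after scaling by the median of gene ratios.

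**Figure D1:**
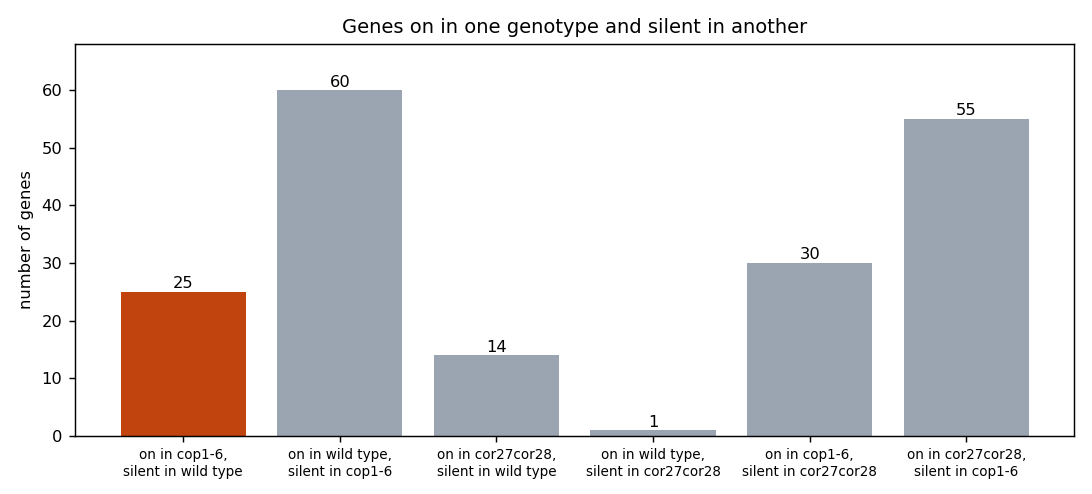
Number of genes (vertical axis) with at least 1 FPKM in all 3 libraries of one genotype and below 0.5 FPKM in all 3 libraries of another, for the 6 ordered pairs of genotypes. On the values as deposited, the set on in cop1-6 and silent in wild type holds 25 genes, and its mirror image holds 60.

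Most members were switched on to a low level. Their mean in cop1-6 ran from 1.21 to 11.2 FPKM with a median of 2.24, and 15 of them reached 2 FPKM, 4 reached 5 and 1 reached 10. Their mean in wild type ran from 0 to 0.395 FPKM with a median of 0.155. The metacaspase gene MC8 was the single member listed at 0 in all 3 wild-type libraries, and 8 members were at 0 in at least 1 of them. After a log2(FPKM + 1) transform, under which low genes appear to change less than they do, the median difference between cop1-6 and wild type was 1.48, against −0.21 over all 17075 genes tested. By the adjusted p of the limma fit 10.9% of tested genes were higher in cop1-6 than in wild type and 38.6% lower, a comparison the rule itself used for the members.

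**Figure D2:**
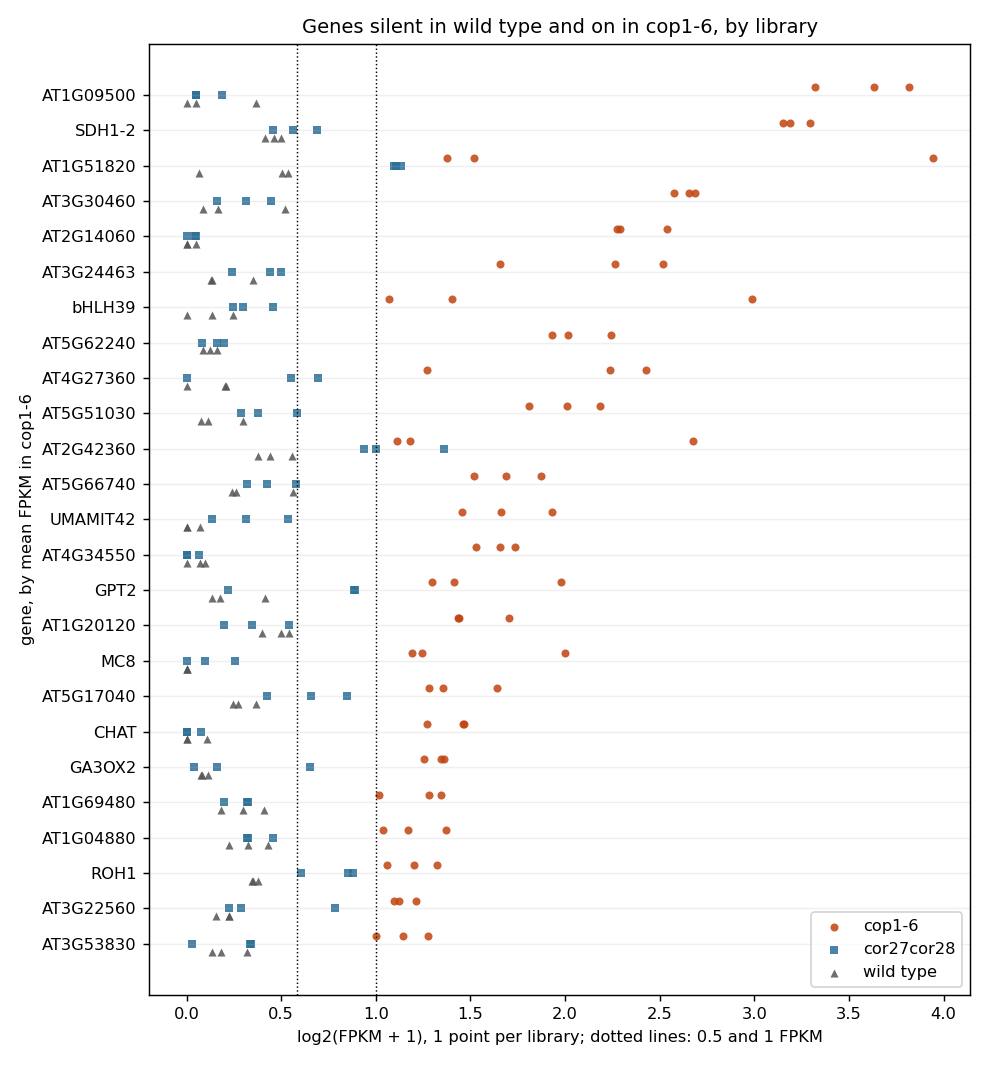
Level of each of the 25 genes in each library, as log2(FPKM + 1), with cop1-6 (circles), cor27cor28 (squares) and wild type (triangles) in every row and dotted lines at 0.5 and 1 FPKM. All cop1-6 points lie at or right of the 1 FPKM line and all wild-type points left of the 0.5 FPKM line, as the rule requires, and 2 rows (AT1G51820 and AT2G42360) have all or some cor27cor28 points past the 1 FPKM line.

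The rule did not use the libraries labelled cor27cor28. Of the 25 genes 1, the receptor kinase gene AT1G51820, was on in all 3 of them, 16 were silent there and 8 lay between. Of all 8611 genes silent in wild type, 0.163% were on in the libraries labelled cor27cor28, 5.49% lay between and 94.3% were silent. AT1G51820 no longer met the limit of 1 FPKM there after median-of-ratios scaling. The mean of the libraries labelled cor27cor28 was above that of wild type in 20 of the 25 genes, against 61.5% of the 3768 genes silent in wild type that were above 0 in either group. Their lowest value exceeded the highest wild-type value for 5 members, AT5G17040, AT2G42360, ROH1, AT1G51820 and UMAMIT42, against 28% of tested genes and 4.34% of genes silent in wild type.

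The limma test took in genes with at least 1 FPKM in 3 or more libraries, and 24 of the 25 members reached that through their cop1-6 libraries, without which they would not have been tested. They were low in both of the other groups, so the number of them called between the libraries labelled cor27cor28 and wild type was largely set by their choice. It was 0 of 25 after Benjamini-Hochberg adjustment over all 17075 genes, of which 14.6% were higher and 7.29% lower, and 1 at an unadjusted p under 0.05. With all cop1-6 libraries or replicate 3 alone left out of the fit it was 2, AT1G51820 and AT2G42360. Nothing about likeness of these 2 groups follows from these counts. The members' log2 differences ran from −0.12 to 0.74 with a median of 0.12, against 0.10 over all tested genes. The rule chose genes low in wild type, which favours a positive value.

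Between cop1-6 and the libraries labelled cor27cor28, 23 of the 25 genes were called higher in cop1-6 and none lower, where 9.19% of tested genes were higher and 56.6% lower. The lowest cop1-6 value exceeded the highest value labelled cor27cor28 for 24 members, against 9.94% of tested genes. The rule and the filter both required a high cop1-6 level, so these counts describe the members and support nothing. The 2 genes not called were AT1G51820, with a log2 difference of 1.17 ± 0.50 (SE), and AT2G42360, with 0.56 ± 0.33. Leaving out cop1-6 replicate 1 or 2 brought AT1G51820 past the threshold.

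**Figure D3:**
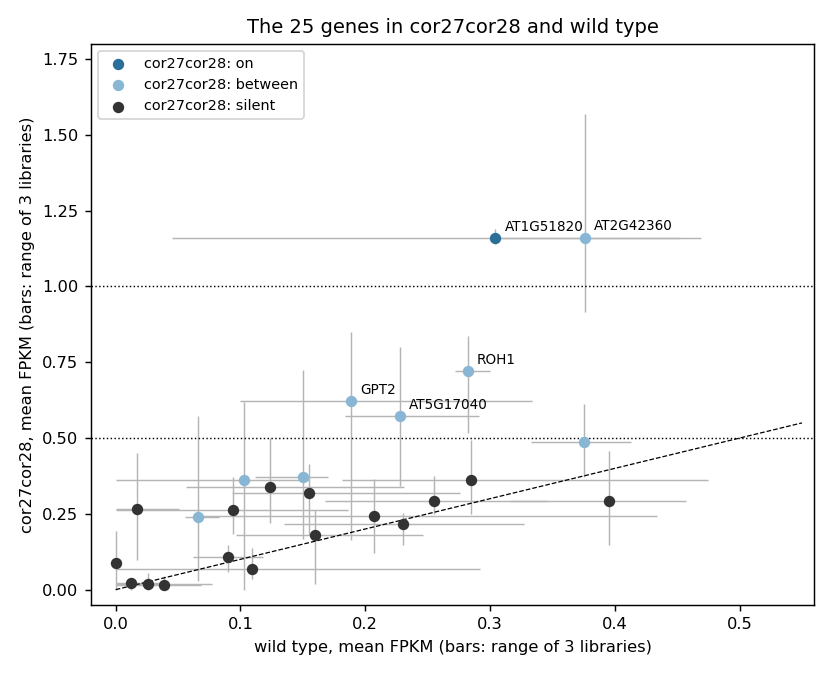
Mean FPKM of each of the 25 genes in the libraries labelled cor27cor28 (vertical axis) against wild type (horizontal axis), with bars for the range of 3 libraries, a dashed line of equal level and dotted lines at 0.5 and 1 FPKM. AT1G51820 and AT2G42360 average 1.16 FPKM in cor27cor28-labelled libraries, and ROH1, GPT2 and AT5G17040 come next, between 0.573 and 0.722 FPKM.

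Several members encode metabolic enzymes. AT1G09500 (chromosome 1, 3066674 to 3068796, plus strand, TAIR10.1), annotated as a protein with an NAD(P)-binding Rossmann fold and described there as similar to alcohol dehydrogenases, had the highest mean of the 25. It had 13.1, 8.99 and 11.4 FPKM in cop1-6, 0.0354, 0.137 and 0.035 FPKM in cor27cor28-labelled libraries and 0.0369, 0 and 0.292 FPKM in wild type. The cop1-6 libraries stood far above the other 6, which overlapped with each other, and the log2 difference between cop1-6 and the libraries labelled cor27cor28 was 3.50 ± 0.17 (SE). Its closest relative in the annotation, the adjacent gene AT1G09510, was listed at 0 in 8 libraries and at 0.0517 FPKM in 1 cop1-6 library.

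SDH1-2 encodes a second copy of the flavoprotein subunit of succinate dehydrogenase, the mitochondrial enzyme shared by the citric acid cycle and the respiratory chain. It had 8.11, 7.89 and 8.8 FPKM in cop1-6, 0.372, 0.611 and 0.476 FPKM in cor27cor28-labelled libraries and 0.379, 0.413 and 0.333 FPKM in wild type. The cop1-6 mean was 22 times that of wild type, while the other 2 groups overlapped. SDH1-1, the copy that was on in every library, had 45.7, 40.6 and 48 FPKM in cop1-6, 41.9, 44.4 and 40.7 FPKM in cor27cor28-labelled libraries and 27, 26.6 and 27.3 FPKM in wild type. It was higher than wild type in both other groups (log2 difference 0.71 ± 0.08, adjusted p = 1.66e-05 in cop1-6, and 0.63 ± 0.08, adjusted p = 0.000475 in the libraries labelled cor27cor28), whereas SDH1-2 was silent or close to it in the libraries labelled cor27cor28. Of the other subunit genes none rose in cop1-6: 6 were tested without a call, SDH5 and SDH6 were called lower (log2 differences −0.38 and −0.49), and SDH2-3 was too low to test. Neither lower call held after median-of-ratios scaling (adjusted p = 0.239 and 0.103), and SDH4 was called higher after either scaling. SDHAF2, which encodes a factor that helps to attach the flavin cofactor to the SDH1 protein, rose in cop1-6 with 33.4 ± 2.84 FPKM, against 16.1 ± 1.83 FPKM in wild type (SD, n = 3 each, by limma log2 difference 1.01 ± 0.11, adjusted p = 1.10e-05). It was also higher than wild type in the libraries labelled cor27cor28 (log2 difference 0.44, adjusted p = 0.0137).

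SDHAF2 is also a neighbour of another member. AT5G51030, annotated as a Rossmann-fold protein, lies 1006 bases from it on the opposite strand, so that both genes are read away from the space between them. AT5G51030 had 3.03, 3.55 and 2.5 FPKM in cop1-6, 0.5, 0.298 and 0.219 FPKM in cor27cor28-labelled libraries and 0.231, 0.0561 and 0.0829 FPKM in wild type. Its cop1-6 values stood apart from both other groups, and its closest relative AT5G61830 was on everywhere and passed no test (log2 difference 0.13 between cop1-6 and wild type, adjusted p = 0.396).

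**Figure D4:**
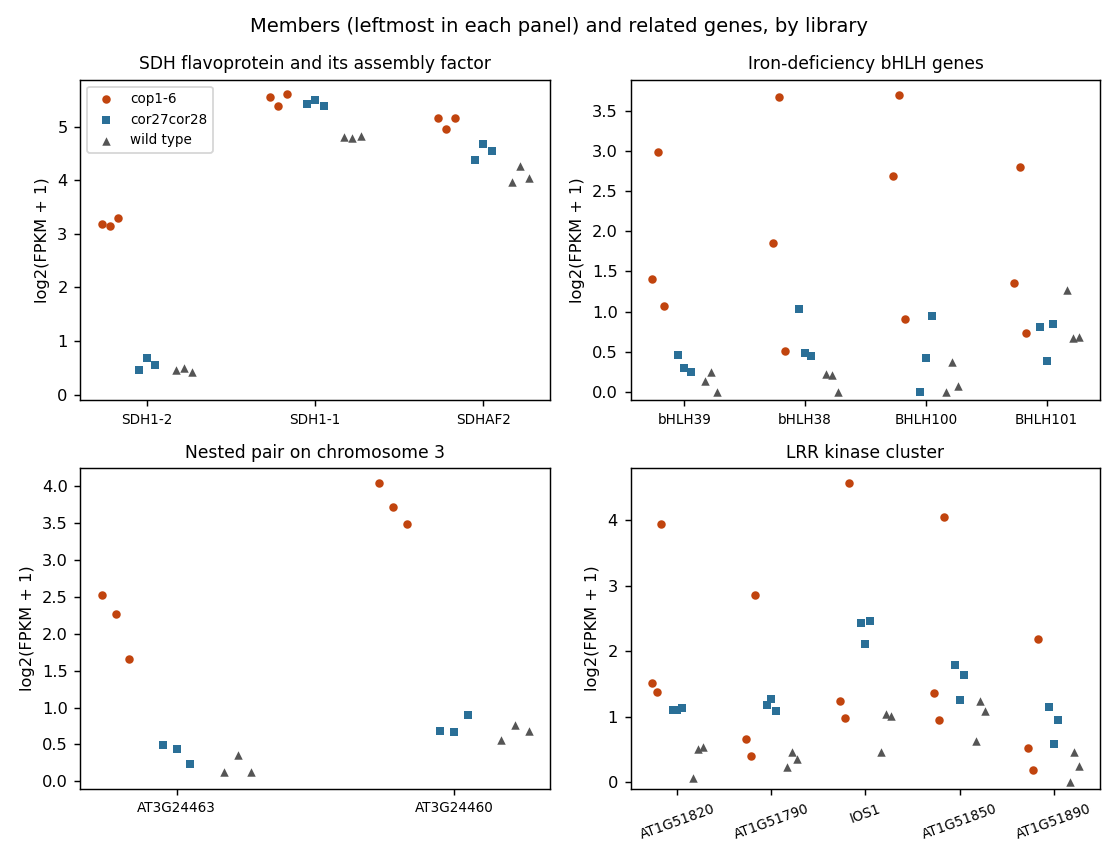
Levels as log2(FPKM + 1) by library for 4 members, leftmost in each panel, and related genes, with cop1-6 (circles), cor27cor28 (squares) and wild type (triangles). SDH1-2 and AT3G24463 are high in all 3 cop1-6 libraries, the iron-deficiency bHLH genes are highest in cop1-6 replicate 2 and the kinase genes in cop1-6 replicate 3.

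GA3OX2 encodes a gibberellin 3-oxidase, which makes the bioactive form of the growth hormone gibberellin and in seedlings acts beside GA3OX1. It had 1.54, 1.57 and 1.39 FPKM in cop1-6, 0.0283, 0.117 and 0.574 FPKM in cor27cor28-labelled libraries and 0.0558, 0.0593 and 0.0825 FPKM in wild type. GA3OX1 had 4.71, 4.72 and 2.8 FPKM in cop1-6, against 3.11, 2.49 and 2.16 FPKM in wild type (log2 difference 0.49 ± 0.18, adjusted p = 0.042). That call was lost when wild-type replicate 2 or 3 or cop1-6 replicate 1 or 2 was left out (adjusted p 0.0901 to 0.147). GA3OX3 was listed at 0 throughout, and GA3OX4 was at 0 in all but 1 library. Of the 21 gibberellin metabolism genes measured 10 were tested. Next to GA3OX2 and GA3OX1, 3 that encode earlier steps, GA2, GA3 and CYP88A3, were called lower in cop1-6 (log2 differences −0.67, −0.44 and −0.51). The call for GA3 was lost under both other scalings.

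Enzymes of other families were also among the 25. AT2G14060, annotated as an S-adenosylmethionine-dependent methyltransferase, had 4.82, 3.9 and 3.84 FPKM in cop1-6 and at most 0.0357 FPKM in the other 6 libraries, 3 of which were at 0. CHAT, whose product acetylates hexenol to form a green-leaf volatile, had 1.76, 1.75 and 1.41 FPKM in cop1-6 and was at 0 in 4 of the other 6 libraries, with at most 0.0768 FPKM. In both genes the lowest cop1-6 value was far above anything in the other 2 groups, which overlapped. AT1G20120, a GDSL lipase, had 1.7, 2.26 and 1.71 FPKM in cop1-6, 0.458, 0.269 and 0.148 FPKM in cor27cor28-labelled libraries and 0.457, 0.413 and 0.316 FPKM in wild type. AT3G22560, an N-acyltransferase of the NAT family, had 1.14 to 1.32 FPKM in cop1-6 and lay between the limits in the libraries labelled cor27cor28 through 1 library at 0.725 FPKM. Its relative AT2G32020 was higher than wild type in both other groups, with 4.94, 3.92 and 7.05 FPKM in cop1-6, 4.83, 4.15 and 3.1 FPKM in cor27cor28-labelled libraries and 0.474, 2.07 and 0.696 FPKM in wild type (log2 differences 1.65 and 1.33, adjusted p = 0.000237 and 0.0044).

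AT5G17040 lies in a run of glycosyltransferase genes with UGT78D3 and UGT78D2. UGT78D1 and UGT78D2 encode enzymes that attach sugars to flavonols, and UGT78D2 also to anthocyanins. AT5G17040 had 2.12, 1.43 and 1.56 FPKM in cop1-6, 0.575, 0.343 and 0.8 FPKM in cor27cor28-labelled libraries and 0.291, 0.184 and 0.209 FPKM in wild type, with no overlap between any 2 of the 3 groups. Both abundant genes of the family rose in cop1-6, UGT78D1 with 47.1, 39.5 and 39 FPKM, against 25.6, 24 and 24.8 FPKM in wild type, and UGT78D2 with 40.8, 36.6 and 35.5 FPKM, against 18.7, 21.1 and 23.7 FPKM in wild type (log2 differences 0.72 and 0.80, adjusted p = 7.16e-05 and 4.96e-05). UGT78D3 stayed under 0.5 FPKM in all 9 libraries.

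The transport genes were GPT2, UMAMIT42 and AT1G69480. GPT2 encodes a glucose 6-phosphate translocator of the plastid envelope that leaves induce when sugars accumulate or light increases. It had 1.46, 1.66 and 2.94 FPKM in cop1-6, 0.85, 0.848 and 0.165 FPKM in cor27cor28-labelled libraries and 0.334, 0.132 and 0.0993 FPKM in wild type, so that 2 of the 3 libraries labelled cor27cor28 lay between the other groups. Its constitutive relative GPT1 had 16.4 ± 1.69 FPKM in cop1-6, against 20.9 ± 0.893 FPKM in wild type (SD, n = 3 each, by limma log2 difference −0.33, adjusted p = 0.0128), a call that both other scalings removed (adjusted p = 0.394 and 0.241). UMAMIT42, of a transporter family in which several members move amino acids out of cells, had 2.82, 1.74 and 2.16 FPKM in cop1-6, 0.45, 0.245 and 0.0994 FPKM in cor27cor28-labelled libraries and 0, 0.0504 and 0 FPKM in wild type. Its relative UMAMIT45 was on in all libraries and passed no test (log2 difference −0.07 between cop1-6 and wild type). AT1G69480, of the EXS family, had 1.54, 1.02 and 1.43 FPKM in cop1-6 and at most 0.327 FPKM elsewhere.

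Among genes for nuclear proteins, bHLH39 encodes a transcription factor that pairs with FIT to switch on iron uptake when iron is short. It had 1.64, 6.92 and 1.1 FPKM in cop1-6, 0.373, 0.228 and 0.185 FPKM in cor27cor28-labelled libraries and 0.0962, 0.186 and 0 FPKM in wild type. Replicate 2 held most of the cop1-6 level. Its adjacent relative bHLH38 had 2.61, 11.7 and 0.429 FPKM in cop1-6, against 0.168, 0.156 and 0 FPKM in wild type, and missed the rule by replicate 3 alone (log2 difference 1.87 ± 0.55, adjusted p = 0.0139). After median-of-ratios scaling bHLH38 fell short of the expression filter and was not tested. BHLH100, of the same subgroup, had 5.42, 12 and 0.87 FPKM in cop1-6 and missed it in the same library.

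Of 12 iron-deficiency and iron-uptake genes, a list drawn up after the members had been seen, 8 were tested, and 6 besides bHLH39 rose in cop1-6 while none was lower. Among all tested genes 10.9% were higher and 38.6% lower. The 6 were bHLH38, FRO3, PYE, BTS, NAS4 and OPT3, with log2 differences from 0.52 to 1.87. OPT3, a transporter that loads iron into the phloem, had 75, 109 and 75.4 FPKM in cop1-6, against 53.8, 51.5 and 63.2 FPKM in wild type. All 6 were highest in cop1-6 replicate 2. The call for PYE was lost without cop1-6 replicate 2 (log2 difference 0.34, adjusted p = 0.0937) and without wild-type replicate 1 or 2 (adjusted p = 0.0728 and 0.0679). The root uptake genes IRT1, FRO2 and FRU (the gene for FIT) were too low to test, and IRT1 was at 0, 0 and 0.128 FPKM in cop1-6, against 1.16, 0.725 and 0.458 FPKM in wild type. In cor27cor28-labelled libraries IRT1 had 0.0417, 0 and 0 FPKM.

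AT1G04880, which encodes an HMG-box and ARID DNA-binding protein, had 1.59, 1.05 and 1.25 FPKM in cop1-6, 0.251, 0.375 and 0.25 FPKM in cor27cor28-labelled libraries and 0.346, 0.251 and 0.168 FPKM in wild type. Its relative AT1G76110, with the same domains, rose in cop1-6 with 23.3, 21.4 and 17.8 FPKM, against 12.9, 11.5 and 11.8 FPKM in wild type (log2 difference 0.74, adjusted p = 0.000136). AT3G24463, annotated as a member of the nuclear transport factor 2 family, had 4.73, 3.81 and 2.15 FPKM in cop1-6, against 0.0962, 0.276 and 0.0935 FPKM in wild type. It lies whole, with 1359 bases, inside AT3G24460 on the same strand. AT3G24460, which encodes a Serinc-domain protein, was below 1 FPKM in the other genotypes as well, and rose in cop1-6: it had 15.5, 12.1 and 10.2 FPKM in cop1-6, 0.602, 0.584 and 0.866 FPKM in cor27cor28-labelled libraries and 0.479, 0.699 and 0.61 FPKM in wild type (log2 difference 3.07 ± 0.16, adjusted p = 2.61e-08). Reads of these 2 genes cannot be told apart from the deposited values, so the level of AT3G24463 is uncertain. Shorter overlaps with a neighbour, of 8 to 134 bases on the opposite strand, were annotated for AT3G22560, AT5G62240, AT4G34550 and AT1G69480, and the use of strand in counting was not given in the sources used here.

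By annotation, 4 members encode proteins of families tied to protein turnover. AT3G30460, which encodes a RING-domain protein (a domain found in ubiquitin ligases), had 5.43, 4.97 and 5.3 FPKM in cop1-6, 0.365, 0.12 and 0.243 FPKM in cor27cor28-labelled libraries and 0.0637, 0.434 and 0.123 FPKM in wild type. The cop1-6 libraries were alike and the other 6 overlapped. Its closest relative AT3G02340, on everywhere, was lower in cop1-6, with 6.61, 7.63 and 7.82 FPKM, against 13.1, 13.8 and 13.5 FPKM in wild type (log2 difference −0.80, adjusted p = 3.38e-05). AT3G02340 was also lower than wild type in the libraries labelled cor27cor28 (log2 difference −0.34, adjusted p = 0.0285). AT4G34550, annotated as an F-box protein (a family that includes substrate receptors of SCF ubiquitin ligases), had 2.15, 2.33 and 1.89 FPKM in cop1-6 and at most 0.068 FPKM in the other 6 libraries. Its role rests here on that annotation alone. Its relative AT2G16365 rose in cop1-6, with 22.6, 22.2 and 21.2 FPKM, against 9.82, 9.84 and 9.99 FPKM in wild type (log2 difference 1.08, adjusted p = 7.58e-07).

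AT2G42360, another RING-domain gene, and MC8, a metacaspase gene (metacaspases are cysteine proteases), were highest in cop1-6 replicate 3. AT2G42360 had 1.27, 1.16 and 5.4 FPKM in cop1-6, 1.57, 0.915 and 0.998 FPKM in cor27cor28-labelled libraries and 0.469, 0.359 and 0.3 FPKM in wild type. It was the single member whose cop1-6 libraries overlapped those labelled cor27cor28, and it overlaps an antisense RNA gene by 1170 bases, from which its reads cannot be told apart without strand. MC8 had 1.37, 1.28 and 3 FPKM in cop1-6, 0.193, 0 and 0.0712 FPKM in cor27cor28-labelled libraries and 0 in wild type. Of the 8 other metacaspase genes none was called higher in cop1-6, but after either scaling MC3 was. MC9 fell to 1.95, 2.08 and 1.36 FPKM in cop1-6, against 6.37, 5.59 and 5.22 FPKM in wild type (log2 difference −1.27, adjusted p = 2.94e-05). It was also lower than wild type in the libraries labelled cor27cor28 (log2 difference −0.49, adjusted p = 0.0394). MC4 was also called lower in cop1-6, a call lost under both other scalings (adjusted p = 0.494 and 0.214).

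AT1G51820 encodes a leucine-rich repeat receptor kinase, a class of cell-surface proteins, and sits in a run of such genes on chromosome 1. It had 1.87, 1.6 and 14.4 FPKM in cop1-6, 1.15, 1.14 and 1.19 FPKM in cor27cor28-labelled libraries and 0.0449, 0.416 and 0.452 FPKM in wild type. The groups did not overlap, and 1 cop1-6 library was several times above the other 2. Of 13 genes in the run 7 were tested, and AT1G51830 was the one called higher in cop1-6 besides AT1G51820 (log2 difference 0.77, adjusted p = 0.0139). That call was lost without wild-type replicate 1 or cop1-6 replicate 1 (adjusted p = 0.0615 and 0.0588). Besides AT1G51820, 3 genes of the run were called after either scaling and 5 without cop1-6 replicate 2, but none without wild-type replicate 1 and 2 without wild-type replicate 3. IOS1 had 1.35, 0.974 and 22.7 FPKM in cop1-6, 4.38, 3.32 and 4.53 FPKM in cor27cor28-labelled libraries and 0.383, 1.06 and 1.02 FPKM in wild type. AT1G51850, AT1G51790 and AT1G51890 were likewise highest in cop1-6 replicate 3, with 15.6, 6.25 and 3.57 FPKM there and at most 1.58 FPKM in the other cop1-6 libraries. With replicate 3 left out, 36 genes met the rule on the remaining libraries, among them all 25.

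The last 5 members have structural or little-known products. AT5G62240, annotated as a cell-cycle-regulated microtubule-associated protein, had 2.81, 3.74 and 3.04 FPKM in cop1-6 and at most 0.148 FPKM in the other 6 libraries. AT4G27360, a dynein light chain, had 4.38, 3.71 and 1.41 FPKM in cop1-6, 0.619, 0 and 0.466 FPKM in cor27cor28-labelled libraries and 0.153, 0.155 and 0 FPKM in wild type. Here replicate 3 was the lowest cop1-6 library. AT5G66740, of a family of unknown function (DUF620), had 2.66, 2.22 and 1.87 FPKM in cop1-6 and at most 0.493 FPKM elsewhere, and AT3G53830, of the RCC1 family, had 1.42, 1 and 1.21 FPKM in cop1-6 and at most 0.264 FPKM elsewhere.

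ROH1 had 1.08, 1.5 and 1.3 FPKM in cop1-6, 0.838, 0.518 and 0.809 FPKM in cor27cor28-labelled libraries and 0.3, 0.272 and 0.274 FPKM in wild type, 3 separate levels. Its log2 difference between the libraries labelled cor27cor28 and wild type was 0.42 ± 0.15 (SE). Between cop1-6 and the libraries labelled cor27cor28 it was also 0.42 ± 0.15, the smallest such difference among the 25. The equal steps hold for log2(FPKM + 1) only. With a pseudocount of 0.1 they were 1.08 from wild type to the libraries labelled cor27cor28 and 0.78 from there to cop1-6. The call between cop1-6 and the libraries labelled cor27cor28 was lost without cop1-6 replicate 2 or 3 or cor27cor28 replicate 2.

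Within cop1-6 the 3 libraries kept within 2-fold of each other for 18 of the 25 genes. The 7 others were AT1G51820, bHLH39, AT2G42360, AT4G27360, MC8, AT3G24463 and GPT2. Replicate 1 was the highest cop1-6 library for 13 members, replicate 2 for 7 and replicate 3 for 5. At least 2 times above both other cop1-6 libraries were 3 members in replicate 3 (AT1G51820, AT2G42360 and MC8), 1 in replicate 2 (bHLH39) and none in replicate 1.

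**Figure D5:**
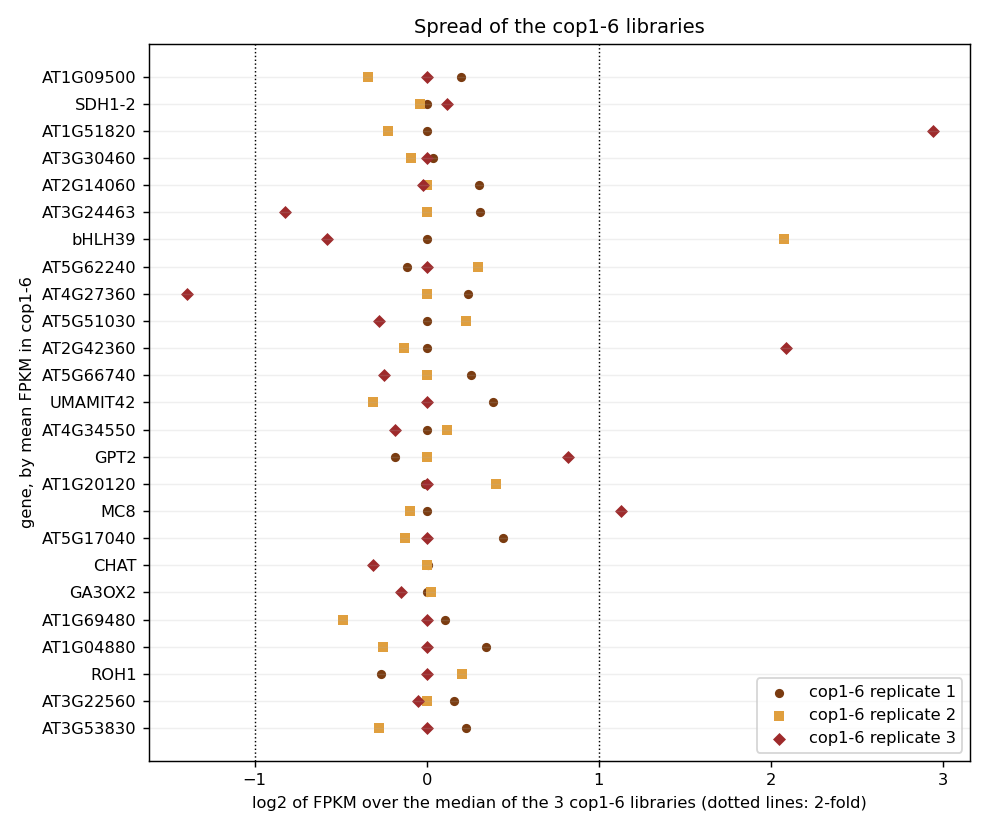
log2 of FPKM over the median of the 3 cop1-6 libraries (horizontal axis) for each of the 25 genes (rows), 1 point per library, with dotted lines at 2-fold. AT1G51820, AT2G42360 and MC8 have replicate 3, and bHLH39 has replicate 2, beyond the right line, and AT4G27360 has replicate 3 beyond the left one.

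The upstream sequences were searched on both strands in the 250 bases before each annotated gene start for motifs of light, clock and seed regulators. The core of the evening element, AATATCT, which clock proteins of the CCA1 and RVE family bind in its longer form AAAATATCT, was in the windows of 5 of the 25 genes (20%), against 10% of all 26984 genes and 10.1% of the genes silent in wild type. The longer form was in 2 of them, AT2G14060 and GPT2, against 2.33% of all genes. The 5 windows are shown because they hold the motif, which is in capitals and reads AGATATT where it lies on the other strand. They are given 5′ to 3′ on the strand of the gene from RefSeq's TAIR10.1 assembly, at chr1:3066424-3066673 (plus strand) for AT1G09500, chr1:19241966-19242215 (minus strand) for AT1G51820, chr2:5916437-5916686 (minus strand) for AT2G14060, chr4:16502282-16502531 (plus strand) for AT4G34550 and chr1:22824164-22824413 (plus strand) for GPT2.
AT1G09500: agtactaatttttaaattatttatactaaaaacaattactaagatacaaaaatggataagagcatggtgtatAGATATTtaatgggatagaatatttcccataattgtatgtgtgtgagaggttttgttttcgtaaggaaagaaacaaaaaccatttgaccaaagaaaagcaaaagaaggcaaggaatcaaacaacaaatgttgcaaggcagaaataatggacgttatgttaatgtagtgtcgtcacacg
AT1G51820: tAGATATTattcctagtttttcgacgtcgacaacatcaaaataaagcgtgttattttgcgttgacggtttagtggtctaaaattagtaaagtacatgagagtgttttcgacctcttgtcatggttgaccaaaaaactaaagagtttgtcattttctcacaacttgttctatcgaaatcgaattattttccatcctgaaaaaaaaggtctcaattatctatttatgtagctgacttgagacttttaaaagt
AT2G14060: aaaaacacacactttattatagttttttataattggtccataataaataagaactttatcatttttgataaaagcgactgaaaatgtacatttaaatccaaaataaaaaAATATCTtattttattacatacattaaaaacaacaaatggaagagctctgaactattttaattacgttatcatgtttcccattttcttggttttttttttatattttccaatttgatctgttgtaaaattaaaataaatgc
AT4G34550: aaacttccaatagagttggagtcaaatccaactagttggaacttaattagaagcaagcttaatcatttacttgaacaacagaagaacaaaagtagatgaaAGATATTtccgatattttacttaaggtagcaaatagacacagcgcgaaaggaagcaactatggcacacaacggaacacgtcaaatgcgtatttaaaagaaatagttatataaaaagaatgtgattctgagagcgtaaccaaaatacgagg
GPT2: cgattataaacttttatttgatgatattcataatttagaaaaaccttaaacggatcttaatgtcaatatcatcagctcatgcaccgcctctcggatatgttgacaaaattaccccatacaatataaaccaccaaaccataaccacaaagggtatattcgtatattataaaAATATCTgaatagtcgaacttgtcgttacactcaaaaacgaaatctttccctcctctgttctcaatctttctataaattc

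Relative to the gene start the first base of the motif lay at −178 in AT1G09500, −249 in AT1G51820, −141 in AT2G14060, −150 in AT4G34550 and −80 in GPT2. The G-box CACGTG, bound by HY5 and other light-regulated factors, was in the window of 1 member, AT1G69480 (4%, against 6.47% of all genes). Its core ACGT was in 12 (48%, against 44%), GATAAG in 3 (12%, against 12.3%), the RY element CATGCA of seed genes in 3 (12%, against 8.4%) and AACACATG in 1 (4%, against 1.53%). ACGT also counts every CACGTG, and AATATCT every AAAATATCT. With 25 windows each gene is 4% of the set, and a match describes these letters and is no evidence of binding.

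The closest relative that the annotation's protein comparison names was in the files for 24 of the 25 genes, and no relative was itself a member. Wild type had 10 of these 24 on in all its libraries and 8 silent, and 7 were silent in cop1-6 as well. Of all genes measured, 31.9% were silent in wild type. Of the 15 relatives tested between cop1-6 and wild type, 6 rose (SDH1-1, bHLH38, AT2G16365, GA3OX1, AT1G76110 and AT2G32020), 3 were lower (AT3G02340, GPT1 and AT4G23530) and 6 were not called. Among all tested genes 10.9% were higher in cop1-6 and 38.6% lower. The calls for GPT1 and AT4G23530 were lost under both other scalings, and that for GA3OX1 when single libraries were left out. For 9 members, among them AT1G09500, AT5G62240, AT1G20120, CHAT and MC8, the relative was too low in most libraries to be tested.

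The 25 genes were spread over the genome. Chromosomes 1 to 5 held 9, 3, 6, 2 and 5 of them, of 6989, 4242, 5361, 4120 and 6272 genes measured. No pair had 5 or fewer genes between them, and the closest, AT3G22560 and AT3G24463, had 264 annotated genes between them. Their median length was 1884 bases, against 2073 bases for all genes. Among the 12 members whose annotation lists the plant structures in which they were found expressed, the median was 8.5 structures, against 22 for the 13679 genes with such a list and 4 for the 2242 of those silent in wild type.

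The nearest measured genes before and after each of the 25, 50 in all, were no members. They overlapped some members and lay up to 39015 bases from others. Of these 46% were silent in wild type, against 31.9% of all genes. Of 27 tested, 8 were called higher in cop1-6, among them AT3G24460, bHLH38, SDHAF2, UGT78D2, EDA7 and AT3G22550, and 5 lower, or 3 lower after either scaling. Over all tested genes 10.9% were called higher in cop1-6 and 38.6% lower. After median-of-ratios scaling 3704 of 17041 were higher and 3611 lower, and after scaling to equal totals 2993 of 17067 were higher and 4028 lower. AT3G22550, annotated as a putative quinone oxidoreductase subunit and 5036 bases from AT3G22560, had 9.83, 10.5 and 11.1 FPKM in cop1-6, against 3.38, 4.04 and 4.32 FPKM in wild type (log2 difference 1.23, adjusted p = 3.40e-06). CYP79F1, which encodes an enzyme of aliphatic glucosinolate synthesis and lies 85 bases from MC8, was lower in cop1-6 with a mean of 4.29 FPKM, against 11 FPKM in wild type (log2 difference −1.28, adjusted p = 0.0022). It was also lower than wild type in the libraries labelled cor27cor28 (log2 difference −1.01, adjusted p = 0.0221). SDHAF2, EDA7 and AT3G22550 were also higher there (log2 differences 0.44, 0.85 and 0.45, adjusted p = 0.0137, 0.000833 and 0.0156). AT3G24460, bHLH38 and UGT78D2 were not called there. The cop1-6 calls for the other 2 higher neighbours, AT1G09490 and AT4G27350, were lost when single libraries were left out (adjusted p up to 0.099 and 0.0827).

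The 2 lists of flavonoid and light-induced genes held no member, which the limits of the rule partly set. Of 28 flavonoid and anthocyanin genes 13 were tested, 10 rose and none was lower, and none was a member. MYB12, silent in wild type, missed the rule with a lowest cop1-6 value of 0.912 FPKM. Of 11 genes induced by light or light stress 10 rose and UVR3 was lower, a call lost after either scaling, and none was silent in wild type. ELIP1 missed the silent limit with 1.07, 0.64 and 0.43 FPKM in wild type, against 137, 138 and 111 FPKM in cop1-6. Of 33 seed maturation and storage genes 11 were tested and 8 rose, among them the cruciferin gene CRA1 (log2 difference 2.70), while RAB18 was lower as deposited but not after either scaling. CRU3, silent in wild type, missed the rule with a lowest cop1-6 value of 0.916 FPKM. No member came from the lists of 22 floral and flowering genes (1 of 6 tested higher, 2 lower), 26 defence genes (3 of 14 higher, 2 lower), 7 small heat shock protein genes (of which 1 was tested and not called) or 13 triterpene genes (none of 5 higher, 4 lower). Of all genes silent in wild type 0.29% were members, so absence from lists this short says little. Among all tested genes, 10.9% were called higher in cop1-6 and 38.6% lower.

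Markers of other tissues were not among the 25 either, but this says little. Of all genes silent in wild type 0.29% were members, and no guard cell and epidermis marker was silent there. Of 16 anther and pollen markers 10 were listed at 0 in every cop1-6 library and 1 was tested, MS2, which rose by a log2 difference of 0.35. The list summed to 29.7 to 39.7 FPKM in cop1-6, against 25.2 to 28.7 FPKM in wild type. MS2 alone made up nearly all of this sum in every library of both groups, so the sums describe that gene and not the list as a whole. Of 12 markers of ovule, seed coat and endosperm 3 were tested and all 3 were lower, but none was after either scaling. Of 9 guard cell and epidermis markers MYB60 was higher and 3 were lower, of which KCS6 alone stayed lower after either scaling. As deposited, 10.9% of all tested genes were higher in cop1-6 and 38.6% lower.

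Near the limits the choice was close. Just inside the cop1-6 limit were AT3G53830, AT1G69480 and AT1G04880, with lowest cop1-6 values of 1, 1.02 and 1.05 FPKM, and just outside it AT5G59680, DIN2 and LOG5, with 0.992, 0.987 and 0.982 FPKM. Just inside the wild-type limit were AT5G66740, AT2G42360 and AT1G20120, with highest wild-type values of 0.475, 0.469 and 0.457 FPKM, and just outside it AT2G29370, RLP50 and NAC003, with 0.509, 0.514 and 0.516 FPKM. AT2G29370, annotated as a Rossmann-fold protein, had 5.27, 4.62 and 2.89 FPKM in cop1-6 and averaged 4.26 FPKM there. The set grew to 39 genes without wild-type replicate 2 and to 43 without cop1-6 replicate 2, since a rule on fewer libraries is easier to meet, and all 25 were among them.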

How the data were processed

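The authors deposited 1 FPKM value per gene and library, per the file headers. Per the submitters' processing notes the TAIR10 build was used, with the tools DESeq 1.18.0, Cufflinks, Bowtie2, TopHat, HISAT2 2.2.1.0 and Trimmomatic 0.36. Their roles, and so the maker of the FPKM, were not given in the sources used here. Read depth is unknown and no counting interval was computed, and a value of 0 means listed at 0. The 13 entries without a gene name (0.000197% to 0.00203% of a library's sum) were left out. All 26984 named genes matched the TAIR10.1 annotation from RefSeq, the source of symbols, positions, products and closest relatives.

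Members were chosen on FPKM as deposited. For tests, limma 3.58.1 under R 4.3.3 was fitted to log2(FPKM + 1) of all 9 libraries with 3 genotypes as groups and a variance trend, over the 17075 genes that reached 1 FPKM in 3 or more libraries, with Benjamini-Hochberg adjustment and a threshold of 0.05. The fit was also run on simulated data, with known changes placed only in genes of higher mean level than the members. That run says nothing of calls at the members' level. The alternatives were other limits, pseudocounts, filters and scalings, fits on 2 groups, a replicate block and leaving out each library.

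The members, the lists and their tests were chosen with earlier results of these data known, and the iron, succinate dehydrogenase, glucose 6-phosphate translocator, metacaspase, receptor kinase, UGT78D and gibberellin 3-oxidase lists after the members had been seen. List symbols that RefSeq gives to several genes were matched by gene ID. The rule for naming genes took the 15 members highest in cop1-6, those on in cor27cor28, on a list, near a limit or highest in cop1-6 replicate 3. The other members, the relatives and the neighbours were named after their values had been seen.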

Additional observations from a re-analysis of the deposited data

How the results depend on the processing

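The number of genes silent in wild type and on in cop1-6 depended on the limits. It was 12 with a silent limit of 0.25 FPKM, 1 with a silent limit of 0 FPKM, 7 with an on limit of 2 FPKM, 94 with an on limit of 0.5 FPKM, 176 with both limits on group means, 45 after median-of-ratios scaling and 41 after scaling to equal totals. With the limits on means or an on limit of 0.5 FPKM all 25 genes were included. Leaving out 1 wild-type or cop1-6 library gave 34 to 43 genes. The number also on in the libraries labelled cor27cor28 was 0, 0, 0, 12, 42, 0 and 1 in the order of the settings above, and 1 to 4 with 1 library left out. After median-of-ratios scaling 47 genes were on in cop1-6 and silent in cor27cor28, against 30 as deposited, and 33 were on in cor27cor28 and silent in cop1-6, against 55. The 1 gene on in wild type and silent in cor27cor28 was lost under both scalings (0 genes). For cor27cor28 against wild type, members called higher numbered 1 with a pseudocount of 0.1, 1 with no filter, 2 with 2 groups in the fit, 2 without cop1-6 replicate 3 and 0 otherwise. Members called higher in cop1-6 against the libraries labelled cor27cor28 numbered 2 with a filter of 5 FPKM, which left 2 members to test, and 22 to 24 in the other settings. The median log2 difference of all genes between cop1-6 and wild type was −0.21 as deposited, −0.00 under median-of-ratios scaling and −0.05 under equal totals, while the genes called numbered 1865 higher and 6583 lower, 3704 higher and 3611 lower, and 2993 higher and 4028 lower. Same-numbered libraries showed residual correlations from −0.18 to 0.12, against −0.16 to 0.21 for differently numbered ones. These values show no pairing by replicate number, but a shared batch was not tested. With the replicate number as a block the members called stayed at 23 and 0, with AT1G51820 in place of ROH1, and GA3OX1 was not called (adjusted p = 0.0551), nor with no filter or 2 groups (adjusted p = 0.0794 and 0.0514). None of the named single-gene results recomputed under these settings changed direction. Unknown depth limits what the lowest values can show.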

Other observations

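Beside the 25, 77 genes silent in wild type averaged at least 1 FPKM in cop1-6 without reaching it in every library. Replicate 3 was the highest cop1-6 library for 47 of them, replicate 2 for 19 and replicate 1 for 11. The receptor kinase gene FRK1 had 0.117, 0 and 6.81 FPKM in cop1-6, against a wild-type mean of 0.0218 FPKM. The transcription factor gene WRKY30 had 0.813, 0.411 and 8.02 FPKM, CYP71A12, of camalexin synthesis, had 0.442, 0.123 and 7.12 FPKM, and PROPEP3, the precursor of a danger peptide, had 0.392, 0.404 and 5.19 FPKM in cop1-6. AT4G12500, a lipid-transfer-like gene, had 0.986, 0.215 and 69 FPKM in cop1-6, against 0, 0.194 and 0.282 FPKM in wild type. These genes were named after their values had been seen.

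The 14 genes on in the libraries labelled cor27cor28 and silent in wild type shared AT1G51820 with the 25, which is 1 of 14 and 1 of 25. The others included WRKY50, with 1.43, 1.43 and 1.17 FPKM in cor27cor28-labelled libraries, against 0, 0 and 0.0388 FPKM in wild type, and AIG1, with 4.15, 2.44 and 2.47 FPKM in cor27cor28-labelled libraries, against 0.0536, 0.154 and 0.154 FPKM in wild type. In cop1-6 WRKY50 had 0.118, 0 and 0.31 FPKM. ERF71, a gene of the low-oxygen response, had 1.53, 1.17 and 1.28 FPKM in cor27cor28-labelled libraries, against 0.104, 0.204 and 0.233 FPKM in wild type. It had 0.632, 0.651 and 1.16 FPKM in cop1-6, where limma called it higher than wild type (log2 difference 0.61, adjusted p = 0.00874). SRO3, AT2G38250 and AT3G63380, of the same 14, were also called higher in cop1-6, while WRKY50 and AIG1 were not.

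Genes that met the rule under both other scalings but not on the deposited values numbered 12, among them NAC003, DIN2, GSTF5, LOG5 and AT2G29370. AT4G05470, of the same 12, had 1.35, 1.02 and 0.968 FPKM in cop1-6 and was at 0 in 5 of the other 6 libraries.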
